A study of Mus musculus with 8 samples.

Results

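The genes described here are 10 textbook targets of the transcription factor NF-κB with roles in cell survival, activation and adhesion: Birc2, Birc3, Gadd45b, Ier3, Cd69, Cd83, Nod2, Icam1, Vcam1 and Sdc4. They were taken from a list of classical NF-κB targets, by symbol, and all 10 were found among the 24112 genes with a value in each library. RNA was sequenced from LSK cells, the lineage-negative Sca1+ Kit+ fraction of mouse bone marrow that holds the blood stem cells and early progenitors. Sorting was done on C57BL/6 mice that had received a marrow transplant. WT mice (4 libraries) had been reconstituted with Vav-Cre+ marrow, and KO mice (4 libraries) with Traf6-/-;Vav-Cre+ marrow, so both groups carry the Cre recombinase and both passed through transplantation. The Vav promoter drives Cre in blood cells, so Traf6 is lost in donor blood cells and not in the host's other marrow tissue. Whether each library is a different mouse is not in the labels, so the p-values reflect variation among libraries and some of it may be technical.

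TRAF6, a ubiquitin ligase, works below the interleukin-1 and Toll-like receptors and switches on the IκB kinase complex. That kinase marks the inhibitor IκB for degradation, and NF-κB dimers then enter the nucleus and bind κB sites in the promoters and enhancers of their targets. The targets fall into groups with different tasks: some keep the cell alive under stress, some are surface or sensor proteins of activated immune cells, and some tether cells to their neighbours and to the matrix. The study asked whether TRAF6 keeps up a basal NF-κB activity in unstimulated stem and progenitor cells, so each gene is set here against its basal level in WT.

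The upstream sequences show where a κB motif lies in these genes. The RefSeq table of promoters (GRCm38.p6, 250 bases before to 50 after each gene's start) held 7 of the 10 genes; Cd69, Cd83 and Vcam1 are named only. The classical κB motif, searched on both strands, was found in 2 of the 7, Ier3 and Sdc4 (28.6%), against 10.6% of the 17953 genes of the files that have such a window. With a looser form of the motif the same 2 genes matched, against 13.9% of genes. On the gene's own strand alone only Sdc4 matched (14.3%, against 7.44% of genes). The 2 matches are shown with 10 bases on each side, 5′ to 3′ on the gene's strand, with the motif in capitals:
Ier3, chr17:35821611-35821640, + strand: tgcgaagggcGGAGTTCCCCccggcccggc
Sdc4, chr2:164443251-164443280, - strand: agctttcccgGGGGAATTCCgggcggtgcg
The Ier3 match lies 92 to 83 bases before the start and reads as the motif on the opposite strand. The Sdc4 match lies 82 to 73 bases before the start. The full 250 upstream bases are shown for Sdc4, the only member listed at 0 in every KO library while present in every WT library:
Sdc4, chr2:164443189-164443438, - strand: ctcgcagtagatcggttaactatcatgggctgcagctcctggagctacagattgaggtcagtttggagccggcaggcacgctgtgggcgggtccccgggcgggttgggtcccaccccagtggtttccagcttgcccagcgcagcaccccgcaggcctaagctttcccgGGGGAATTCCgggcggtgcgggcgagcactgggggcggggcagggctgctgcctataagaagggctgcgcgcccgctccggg
The motif as searched begins with GGG, and κB sites that differ from it are missed. After the data were seen it was therefore searched again without its first base, which matched Birc2, Icam1, Ier3, Nod2 and Sdc4 (5 of 7, 71.4%), against 31.9% of genes. Icam1 is shown because its match, 153 to 145 bases before the start, lies in the promoter of the member whose lane 4 KO values were above all WT values:
Icam1, chr9:21015777-21015805, + strand: acttcagtttGGAAATTCCtagatcgcag
Neither form was found in Birc3 and Gadd45b. A match is a description of the letters, not of binding, and no match says only that these letters are not in the window. Of the 2 genes with the first form, Sdc4 was listed at 0 in KO and Ier3 had nearly equal means in both groups.

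Traf6 was measured first, as a check of the labels. WT1 to WT4 held 14.9, 3.52, 9.40 and 7.10 RPKM of it, whereas KO1 to KO4 held 0.613, 0.818, 0 and 0.00721 RPKM, so the groups did not overlap. RPKM are reads scaled to the length of the gene and to the reads of the library, so that levels can be compared between genes. The sorting markers Kit (50.6 to 113 RPKM) and Ly6a, which encodes Sca1 (6.53 to 11.8 RPKM), were present in every library. The highest marker of another cell type was Cd79b for B cells (4.78 to 16.3 RPKM), Nkg7 for T and NK cells (376 to 723), S100a9 for neutrophils (0 to 35.7), Hbb-bt for erythroid cells (0 to 87.9) and Pecam1 for endothelium (9.25 to 26.3). The neutrophil gene Retnlg, the macrophage gene Vsig4 and the endothelial gene Cldn5 were listed at 0 in all 8 libraries. Estimated depth was 19.3 to 24.8 M reads (M, mega) in WT and 22.5 to 30.7 M reads in KO. Library KO3 stood apart: of 7350 genes at 3 RPKM or more in the 7 other libraries it listed 10.7% at 0, against 1.75% in KO4, 1.07% in WT2 and at most 0.0316% in the rest. KO3 and KO4 were also the 2 libraries of lane 5, and the other 6 were run in lane 4. A 0 in these files can therefore be a value that was not estimated. Members' values that rest on KO3, KO4 or WT2 are in part also given without them, though not for Cd83 and Nod2.

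In WT the members spanned a wide range, and 9 of 10 averaged above 1 RPKM. The highest was Ier3, with 101 ± 50.8 RPKM (SD, n = 4), at rank 706 of all genes. Cd69 averaged 44.7 ± 19.9, Gadd45b 24.6 ± 7.24 and Birc2 19.1 ± 7.49 RPKM. Icam1 (8.99 ± 2.51) and Birc3 (6.90 ± 1.98) came next. The lowest 4 were Sdc4 (1.97 ± 0.58), Vcam1 (1.67 ± 1.30), Cd83 (1.44 ± 1.72) and Nod2 (0.807 ± 0.725), the last at rank 12092. Basal expression was thus led by survival genes and Cd69, while the adhesion genes were in the middle and low part of the range. Neighbours in this order mostly cannot be separated: their WT values overlapped in 8 of the 9 neighbouring pairs. The exception was Birc3 over Sdc4, where the lowest Birc3 value (4.52) lay above the highest Sdc4 value (2.45), a 3.50-fold step between the means. Ier3 was above Cd69, Birc2 above Icam1 and Icam1 above Birc3 in all 4 WT libraries, although their ranges overlapped.

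**Figure D1:**
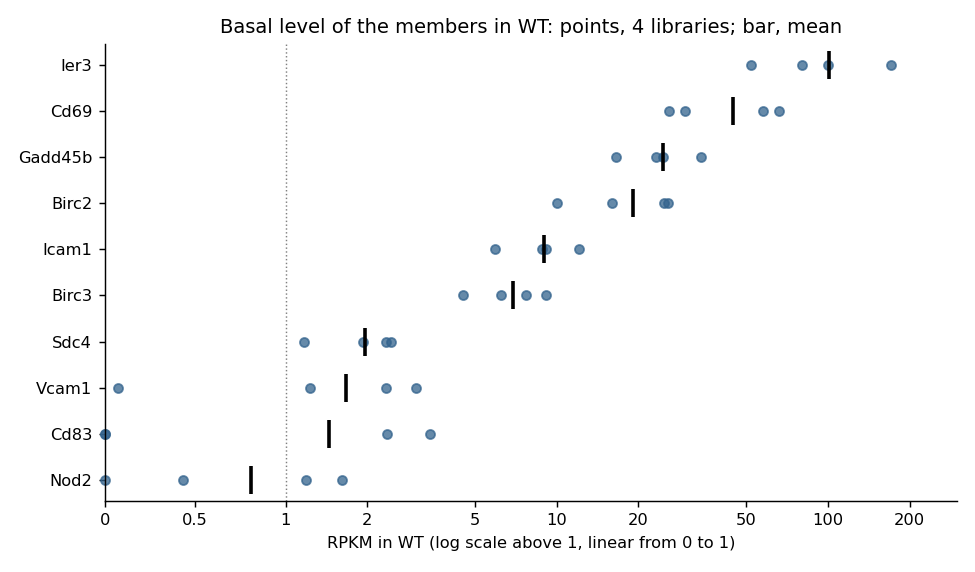
RPKM of each of the 10 genes in the 4 WT libraries (points) with the mean (bar), on an axis that is logarithmic above 1 RPKM and linear below it. Ier3 leads at a mean of 101 RPKM and Nod2 is lowest at 0.807 RPKM, and the ranges of neighbouring genes overlap except for Birc3 and Sdc4.

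KO was compared with WT by limma on log2(RPKM + 1), fitted to the 11276 genes that reached 1 RPKM in 4 or more libraries. All differences below are KO minus WT on that scale, where the added 1 shrinks the change of a low gene. Of the 10 members 8 could be tested, Cd83 and Nod2 being too low. Sdc4 passed through its WT values alone, so it had to differ. No member was called at an adjusted p under 0.05 in limma, and neither was any other gene (0% of 11276). Even the deleted gene Traf6 was not called (-2.75, adjusted p = 0.341 in limma), so a gene not called cannot be read as unchanged. In all 847 genes had an unadjusted p under 0.05. Among the tested members 2 of 8, Cd69 and Sdc4, had an unadjusted p under 0.05, both lower in KO, against 4.74% of all genes lower and 2.77% higher at that p. Without Sdc4 this was 1 of 7. The difference was negative for 6 of the 8, against 61% of all genes. The median over the 8 was -0.40, against -0.14 over all genes. In lane 4 alone it was -0.11, with 4 of the 8 negative, against -0.02 and 51.3% over all genes. With quantile normalization, which removes the general shift, 50.0% of all genes were negative and their median was -0.00, while 5 of the 8 members were negative with a median of -0.20. These sign counts and medians include Sdc4, which had to differ, so they are not read as a result. Among the other 7 the middle difference was that of Vcam1 (-0.26), and in lane 4 alone that of Birc3 (0.12). Only Sdc4 had groups that did not overlap, which is 1 of 10 members and 1 of the 8 tested; of all tested genes 3.88% did not overlap with KO lower and 5.92% in either direction. In bulk RNA, fewer cells of a type and less RNA per cell cannot be told apart.

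**Figure D2:**
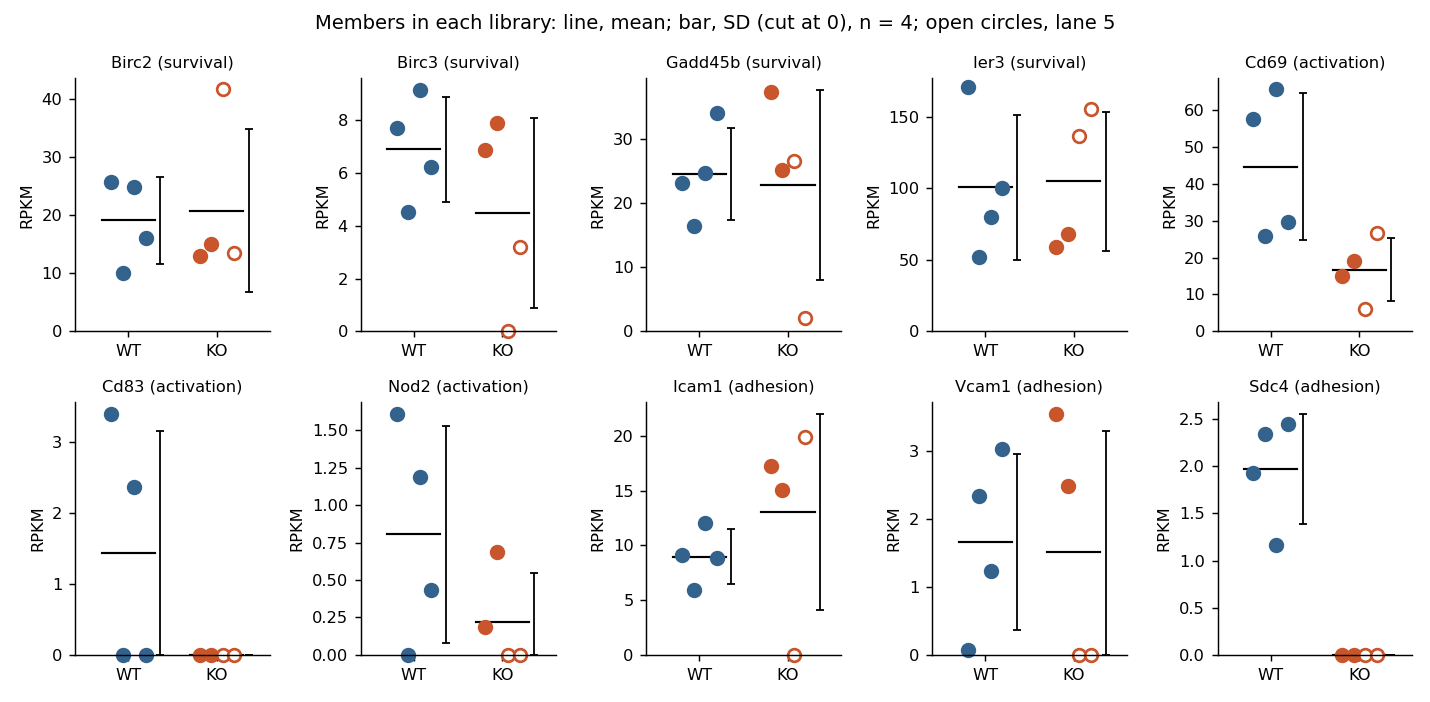
RPKM of each of the 10 genes in every library, with the mean (line) and SD (bar, cut at 0) of 4 WT and 4 KO libraries; open circles are the 2 libraries of lane 5, KO3 and KO4. Cd69 is lower in KO with a small overlap, Sdc4 and Cd83 lie at 0 in all KO libraries, and Icam1 is higher in 3 KO libraries with the other at 0.

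Of the 4 survival genes none was called, and WT and KO overlapped in each. Birc2 encodes cIAP1, a ubiquitin ligase of the inhibitor of apoptosis family that acts at the tumour necrosis factor receptor. Its level was 25.6, 10.02, 24.9 and 16.01 RPKM in WT and 12.9, 15.0, 41.8 and 13.4 RPKM in KO. KO3 was the highest of all 8 libraries, and the other 3 KO libraries lay inside the WT range. The difference was 0.02 ± 0.43 (SE, adjusted p = 0.992 in limma, 95% interval -0.94 to 0.98), and without KO3 it was -0.36.

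Birc3 encodes cIAP2, the close relative of cIAP1 that is itself strongly induced by NF-κB in many cells. WT libraries held 7.70, 4.52, 9.13 and 6.22 RPKM, and KO libraries 6.89, 7.90, 0 and 3.19 RPKM. The 2 KO libraries of lane 4 lay within the WT range, and the 2 of lane 5 lay below it. The difference of -0.90 ± 0.69 (adjusted p = 0.749 in limma) was not seen within lane 4, where it was 0.12 ± 0.35. Of the 2 relatives, 7.66% of the 50-base windows of the longest Birc3 transcript and 2.07% of those of Birc2 also occur in transcripts of other genes, so a small part of their reads may be shared.

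Gadd45b encodes a stress protein that restrains JNK signalling. Its values were 23.2, 16.5, 24.7 and 34.1 RPKM in WT and 37.5, 25.2, 26.7 and 2.06 RPKM in KO. Here KO4 was the low library, and KO1 was above every WT library. The difference was -0.54 ± 0.71 (adjusted p = 0.839 in limma) with all libraries and 0.29 ± 0.29 without KO4.

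Ier3, also known as IEX-1, is an immediate-early gene whose product modulates apoptosis. Its values were 171, 52.0, 80.3 and 100.0 RPKM in WT, compared with 59.2, 67.9, 137 and 156 RPKM in KO. The 2 KO libraries of lane 4 were at the lower end of the WT range, and those of lane 5 near its upper end. The group means were almost equal (101 ± 50.8 and 105 ± 48.6 RPKM, SD, n = 4 each), with a difference of 0.07 ± 0.41 (adjusted p = 0.972 in limma). Within lane 4 the difference was -0.53 ± 0.40.

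Of 10 death signalling partners of Birc2 and Birc3, 9 were tested and none was called or had an unadjusted p under 0.05. The difference was negative for 6 of the 9, against 61% of all genes, and the median was -0.26 (-0.14 over all genes). Casp8, the initiator caspase of death receptors, had 59.2 ± 4.45 RPKM in WT and 54.9 ± 10.1 in KO (SD, n = 4), and its inhibitor Cflar had 20.7 ± 3.51 and 18.9 ± 10.5 RPKM. Birc5, the survivin of dividing cells, had 36.9 ± 1.34 and 39.3 ± 3.82 RPKM. Birc6, a large ubiquitin ligase of the family, had 13.2 ± 2.87 and 8.86 ± 1.76 RPKM. It was lower without overlap by a narrow margin (at most 10.57 in KO, at least 10.62 in WT). No other of the 9 was without overlap, against 3.88% of all genes lower. The smallest p belonged to Ripk1, the kinase that cIAP1 and cIAP2 ubiquitinate, with 16.9 ± 4.46 RPKM in WT, 26.4 ± 6.64 in KO and a difference of 0.61 ± 0.28 (adjusted p = 0.665 in limma). Among 5 stress and early response relatives of Gadd45b and Ier3 none was called. All 5 differences were negative, against 61% of all genes. That of Ier5 alone had an unadjusted p under 0.05, against 4.74% of all genes lower. Ier5 was also the only 1 of the 5 without overlap, against 3.88% of all genes lower. Ier5, an immediate-early gene, had 33.6 ± 8.59 RPKM in WT and 14.2 ± 4.60 in KO without overlap (-1.20 ± 0.32, adjusted p = 0.450 in limma). The relatives Gadd45a (11.8 ± 3.96 and 7.22 ± 7.32 RPKM), Gadd45g (9.14 ± 3.58 and 3.99 ± 4.86 RPKM) and Map3k4, a kinase that Gadd45 proteins bind (12.4 ± 4.58 and 9.29 ± 6.60 RPKM), were all listed at 0 in KO3, and Gadd45g in KO4 as well. Without KO3 the KO means of Gadd45a and Map3k4 were 9.63 ± 6.76 and 12.4 ± 2.81 RPKM.

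All 3 activation genes had a lower mean in KO, and none was called. Cd69 is a C-type lectin of freshly activated lymphocytes that opposes the exit receptor S1pr1. Its level was 57.6, 25.9, 65.7 and 29.7 RPKM in WT and 15.1, 19.2, 6.02 and 26.7 RPKM in KO. KO4 lay just above the lowest WT library, WT2, and the other 3 KO libraries lay below every WT library. The means were 44.7 ± 19.9 and 16.8 ± 8.64 RPKM (SD, n = 4), 2.67-fold lower in KO. The difference was -1.42 ± 0.45 (95% interval -2.43 to -0.41), with an adjusted p of 0.573 in limma. With library weights, which give KO3 little weight (0.137) and KO2 much (6.50), it was -1.28 and passed the threshold (adjusted p = 0.0434 in limma). That weighted fit called 1.45% of all genes, Traf6 among them (-2.52, adjusted p = 0.00785 in limma). Of the members it called Cd69 and also Sdc4, which had to differ because it entered through its WT values alone and whose call is not read as a result. Within lane 4 the Cd69 difference was -1.23 ± 0.39 without overlap (adjusted p = 0.331 in limma), where 24.2% of all tested genes did not overlap in either direction. Without KO3, its lowest library, the Cd69 difference was -1.03 ± 0.36 (adjusted p = 0.462 in limma). Its sign was negative under every alternative run.

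Cd83 encodes an immunoglobulin-family surface protein of mature dendritic cells and activated lymphocytes. It was at 3.40 RPKM in WT1 and 2.37 in WT3 and was listed at 0 in WT2, WT4 and all 4 KO libraries. Its groups touch at 0, so no difference in level can be read beyond these 2 WT libraries. Without the filter on low values the difference was -0.97 ± 0.50 (adjusted p = 0.785 in limma).

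Nod2 encodes a cytosolic sensor of bacterial muramyl dipeptide. Its values were 1.61, 0, 1.19 and 0.434 RPKM in WT and 0.183, 0.689, 0 and 0 RPKM in KO. WT1 and WT3 were the highest, and the groups overlapped. The difference without the filter was -0.51 ± 0.35 (adjusted p = 0.785 in limma).

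All 3 activation genes had their highest 2 values in WT1 and WT3. Over the 8 libraries Cd83 and Nod2 had a Pearson correlation of 0.86 on log2(RPKM + 1), and Cd69 and Cd83 of 0.75. Without KO3 (n = 7) these were 0.87 and 0.89. Such values were not particular to the activation genes. Birc3 and Icam1 had 0.85 over the 8 libraries, and Ier3 and Vcam1 -0.87. Without KO3, Birc2 had 0.94 with Nod2, 0.91 with Cd83 and 0.83 with Cd69, against 0.31, 0.44 and -0.16 over all 8. These are descriptions over libraries that share their depth and their zeros, among 45 pairs of members. Of 7 dendritic cell markers none was at 0 throughout, and their summed level was 265 to 417 RPKM in WT and 89.6 to 192 RPKM in KO. Most of that sum was H2-Ab1 and Flt3, which LSK progenitors also express. The other 5 were low. Itgax was 3.67 to 7.93 RPKM in WT and 0.332, 1.68, 0 and 8.48 RPKM in KO1 to KO4. Xcr1 was 3.13 to 9.66 RPKM in WT and 1.53 to 4.37 in KO, and Clec9a 0.755 to 7.01 and 0 to 1.19. Siglech was 0.0618 to 1.65 RPKM in WT and 0 to 0.653 in KO. Zbtb46 was 0 to 1.94 RPKM in WT and 0 to 2.835 in KO, highest in KO4. Lineage-negative sorting is meant to remove mature immune cells. The sum of 12 stem and progenitor markers, led by Cd34, was 705 to 760 RPKM in WT and 488 to 635 RPKM in KO. The part of either in the Cd69 result was not tested. The B cell genes Cd79a, Ms4a1 and Pax5 and the T cell gene Cd3g were listed at 0 in all 8 libraries. Other T and NK cell genes were not. Lck was 19.1 to 35.2 RPKM in WT, highest in WT1 and WT3, and 3.04 to 22.6 in KO. Cd3d was 0.0781 to 3.42 RPKM in WT and 0 to 0.441 in KO, and Klrb1c 0.419 to 6.00 and 0.387 to 8.20. Nkg7 was 398 to 455 and 376 to 723 RPKM, and Cd3e, Cd8a, Cd4 and Ncr1 were at most 2.99. Their part in the Cd69 result was not tested either.

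Of 6 partners and relatives of these genes 5 were tested and none was called. All 5 differences were negative, against 61% of all genes. That of Klf2 alone had an unadjusted p under 0.05, against 4.74% of all genes lower. Klf2 was also the only 1 of the 5 without overlap, against 3.88% of all genes lower. Klf2, a transcription factor of lymphocyte quiescence, had 13.1 ± 7.10 RPKM in WT and 3.78 ± 2.99 in KO without overlap (-1.62 ± 0.52, adjusted p = 0.573 in limma). KO3 was its highest KO library, and without it the KO mean was 2.30 ± 0.63 RPKM (-2.00 ± 0.41, adjusted p = 0.321 in limma). Ripk2, the kinase that carries the Nod2 signal, had 6.17 ± 3.19 and 1.86 ± 1.46 RPKM (-1.37 ± 0.63, adjusted p = 0.665 in limma). S1pr1 was at 6.48 ± 5.83 and 5.20 ± 3.03 RPKM, the related sensor Nod1 at 2.12 ± 1.58 and 2.07 ± 1.41 RPKM, and Cd40 was listed at 0 in every library.

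The 3 adhesion genes differed from each other in how KO lay against WT. Sdc4 encodes syndecan-4, a heparan sulphate proteoglycan of focal adhesions. Its level was 1.93, 2.34, 1.16 and 2.45 RPKM in WT, and it was listed at 0 in all 4 KO libraries. The WT values stood for about 58 to 149 reads at the estimated depth, and 1 read would have been worth 0.0133 to 0.0181 RPKM in the KO libraries. Both rest on that estimate, which is approximate. No 50-base window of its longest transcript occurs in another gene. Of 9553 genes with at least 1 RPKM in all 4 WT libraries, only Sdc4 and Ifi44l were listed at 0 in all 4 KO libraries (0.0209%); Ifi44l, an interferon-induced gene, is named after its values were seen. Among the 96 of them with WT values between 1 and 3 RPKM Sdc4 was the only one (1.04%). KO3 listed 52.1% of these 96 at 0 and KO4 33.3%, against 3.13% in KO1 and 1.04% in KO2. These shares come from the same values that set Sdc4 apart, so they describe it and do not test it. In limma the difference was -1.55 ± 0.38 (95% interval -2.40 to -0.69, adjusted p = 0.441). A fitted value against zeros depends on the pseudocount: it was -4.32 with 0.1 in place of 1, and -0.59 after quantile normalization. With library weights it was -1.48 and passed the threshold (adjusted p = 0.0412 in limma). Because Sdc4 met the filter on low values through its WT values alone, these fits are no test of it.

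Icam1 is the counter-receptor of the leukocyte integrin LFA-1. Levels in WT were 9.14, 5.91, 12.0 and 8.85 RPKM, and in KO 17.3, 15.0, 0 and 19.9 RPKM. KO1, KO2 and KO4 were above every WT library, and KO3 listed the gene at 0. With all libraries the difference was -0.14 ± 0.88 (adjusted p = 0.972 in limma), and without KO3 it was 0.91 ± 0.29 with no overlap (adjusted p = 0.420 in limma). Within lane 4 the KO mean was 1.80 times the WT mean, a difference of 0.81 ± 0.32 (adjusted p = 0.408 in limma). Of the 50-base windows of its longest transcript 18.6% also lie in an opposite-strand gene, Gm47079, and whether counting used strand is not given in the sources used here, so that part of its reads is uncertain.

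Vcam1 binds the integrin VLA-4, which anchors stem and progenitor cells in the marrow. Its values were 0.0719, 2.34, 1.24 and 3.04 RPKM in WT and 3.55, 2.49, 0 and 0 RPKM in KO. The KO libraries of lane 4 were at the top of the WT range or above it, and both of lane 5 were listed at 0. The difference was -0.26 ± 0.67 over all libraries (adjusted p = 0.928 in limma) and 0.74 ± 0.61 within lane 4.

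In lane 4 alone (4 WT, 2 KO) 3 of the 10 members had groups that did not overlap, Cd69 and Sdc4 lower and Icam1 higher, against 24.2% of all tested genes in either direction. No member was called in that fit. Lane 5 holds KO libraries only and cannot be compared within itself. Among the tested members Cd69 and Sdc4 kept their sign with and without lane 5, whereas Icam1, Vcam1, Gadd45b and Birc3 went from a negative to a positive difference and Birc2 and Ier3 from a positive to a negative one.

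**Figure D3:**
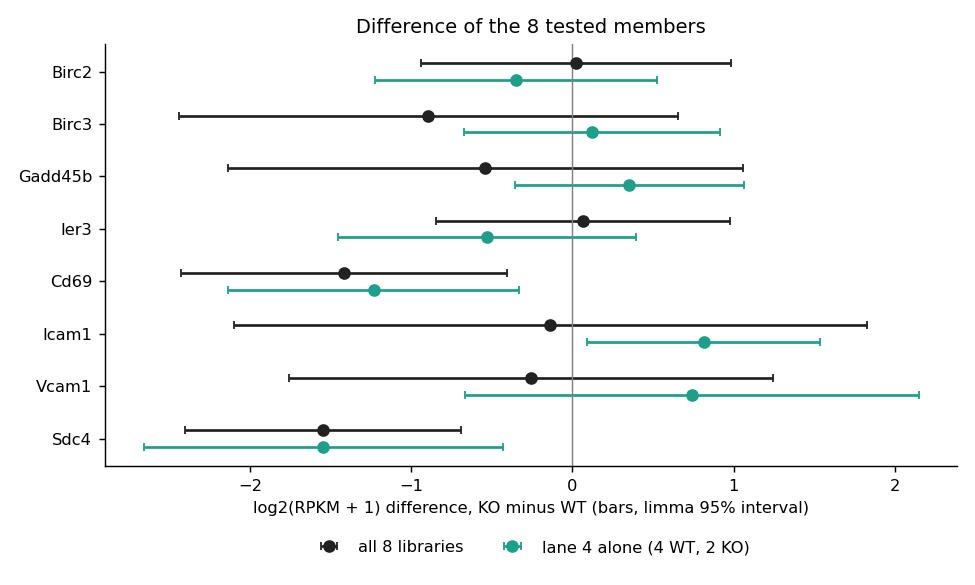
Difference in log2(RPKM + 1), KO minus WT, for the 8 tested genes with limma's 95% interval, over all 8 libraries (black) and in lane 4 alone (green, 4 WT and 2 KO). Cd69 (-1.42 and -1.23) and Sdc4 (-1.55 in both) lie below 0 in both sets, and Icam1 moves from -0.14 to 0.81. The sign of Sdc4 was fixed, because all its KO values are 0.

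**Figure D4:**
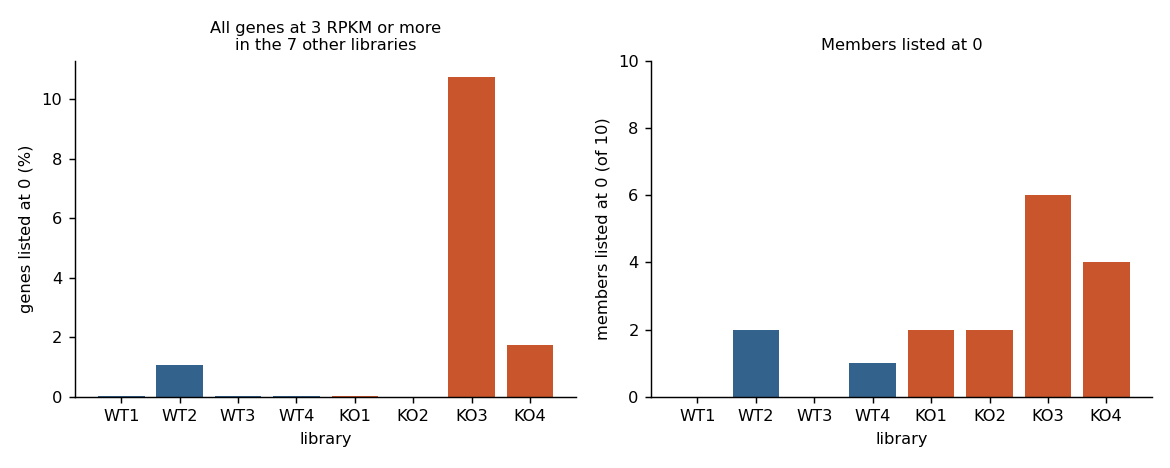
Left, the share of genes at 3 RPKM or more in the 7 other libraries that each library lists at 0, in percent; right, the number of the 10 genes listed at 0 in each library. KO3 is highest in both, with 10.7% of such genes and 6 members, and KO4 lists 4 members at 0.

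The number of members listed at 0 followed the libraries as well as the groups. WT1 and WT3 listed none at 0, WT4 listed Cd83, and WT2 listed Cd83 and Nod2. KO1 and KO2 each listed Sdc4 and Cd83. KO4 listed 4 members at 0 and KO3 listed 6, among them Icam1 and Birc3, which were above 3 RPKM in every other library.

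Integrins and relatives of the adhesion genes were measured from a list of 12, of which 11 were tested. None was called, and 2 had an unadjusted p under 0.05 (both higher, Itgal and Itgam, against 2.77% of all genes higher). Of the 11 differences 7 were negative, against 61% of all genes, and the median was -0.20 (-0.14 over all genes). Without overlap 2 were higher and 1 lower, against 2.05% and 3.88% of all genes. Itgal, the α chain of the Icam1 receptor LFA-1, had 28.8 ± 9.92 RPKM in WT and 50.2 ± 7.88 in KO without overlap (0.84 ± 0.29, adjusted p = 0.618 in limma). Itgam, the α chain of the other Icam1 receptor Mac-1, had 1.78 ± 1.01 and 10.3 ± 8.29 RPKM without overlap (1.87 ± 0.56, adjusted p = 0.515 in limma). KO3 alone stood at 22.8 RPKM, and without it the KO mean was 6.18 ± 0.41 RPKM (1.44 ± 0.44, adjusted p = 0.408 in limma). Itga4, the α chain of the Vcam1 receptor, was at 43.4 ± 6.01 and 37.8 ± 6.67 RPKM. Itgb1, its β chain, was at 75.4 ± 13.6 and 62.3 ± 1.70 RPKM and lower without overlap (-0.26 ± 0.18, adjusted p = 0.730 in limma). Sdcbp, the syntenin that binds syndecan tails, had the highest level of the list, 127 ± 18.9 RPKM in WT and 129 ± 38.3 in KO. Itgam is also made by mature myeloid cells, which the lineage-negative sort is meant to remove: the summed level of 8 macrophage and monocyte markers, led by Ly6c2 and with Vsig4 at 0, was 14.6 to 38.9 RPKM in WT and 0 to 79.7 RPKM in KO, and its part in the Itgam and Icam1 values was not tested. Stromal cells are a major source of Vcam1 in marrow, and the Kit+ gate is meant to leave them out: of 8 stromal markers Pdgfra, Col1a1, Col3a1 and Dcn were listed at 0 in all 8 libraries, and the sum, mostly Pdgfrb, was 10.1 to 21.7 RPKM in WT and 8.77 to 23.5 RPKM in KO.

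Of a wider list of 62 other NF-κB targets 42 were tested. None was called. At an unadjusted p under 0.05, 5 of the 42 were lower and 1 higher, against 4.74% and 2.77% of all genes. In all 33 of the 42 differences were negative (61% over all genes) and the median was -0.26 (-0.14 over all genes). The highest levels belonged to the early response genes Ier2 (421 ± 56.1 RPKM in WT, 321 ± 85.8 in KO) and Zfp36 (397 ± 112 and 271 ± 104). The smallest p was that of Tnfaip3, the gene of the NF-κB inhibitor A20, with 21.9 ± 12.7 RPKM in WT, 5.15 ± 2.62 in KO and a difference of -1.83 ± 0.45 (adjusted p = 0.441 in limma). Junb, a subunit of AP-1, had 245 ± 82.5 and 137 ± 14.7 RPKM (-0.78 ± 0.22, adjusted p = 0.495 in limma). Myc, a driver of cell growth, had 99.2 ± 23.0 RPKM in WT and 142 ± 28.3 in KO (0.52 ± 0.22, adjusted p = 0.645 in limma). In 4 of the 42, Tnfaip3, Junb, Ccnd1 and Map3k8, KO lay below WT without overlap, and in none above it, against 3.88% and 2.05% of all genes; Ccnd1 and Map3k8 are named after their values were seen.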

How the data were processed

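The members and all gene lists were chosen with earlier results of these data known. The values deposited by the authors are taken to be RPKM, given per library for each Entrez gene. No label or header names the unit; it was inferred because low values rise in steps inverse to gene length. The submitters' processing notes name TopHat, edgeR and the build mm9, without version or role. How reads were counted, on which annotation and whether by strand is not given in the sources used here. Per the labels' protocols, libraries were made from 100 ng of total RNA after poly(A) enrichment; both a paired-end and a single-read flow cell are named.

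Of the 24112 Entrez IDs, 99.7% were matched to a symbol through a GRCm38 table used for names only. Promoter sequences and their coordinates are those of RefSeq, build GRCm38.p6. Depth is approximate: it was read from the steps of 46 to 92 low values (up to 0.2 RPKM) per library, of which 50.0% to 59.6% were whole numbers of reads within 0.03 reads. Whole reads could not be recovered, so no count test was run and no counting interval is given.

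The 11276 genes that reached 1 RPKM in 4 or more libraries were tested as log2(RPKM + 1) with limma 3.58.1 in R 4.3.3 (a genotype term over 8 libraries, robust eBayes with a variance trend). P-values were adjusted by Benjamini-Hochberg over all 11276 genes, with a threshold of 0.05. The fit was tested on simulated data. Alternatives were 2 other filters on low values, a pseudocount of 0.1, quantile normalization, the libraries of lane 4 alone, a lane covariate, a replicate block, library weights (limma's arrayWeights), eBayes without trend or robust variance, an adjusted p under 0.1, leaving out WT2, KO3 and KO4 together, and leaving out each library. The search without the κB motif's first base was added after the data were seen. Named besides Traf6 and the members were, per list, up to 4 genes of highest level and up to 2 of smallest p, and of the marker lists the highest gene and those listed at 0 throughout. Cd40, Kit, Ly6a, Flt3, Itgax, Xcr1, Clec9a, Siglech, Zbtb46, Ccnd1, Map3k8, Ifi44l and Gm47079 are named outside this rule, after their values were seen. The same holds for Lck, Cd3d, Cd3e, Cd8a, Cd4, Ncr1 and Klrb1c.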

Additional observations from a re-analysis of the deposited data

Results flagged for a closer look

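The 4 values of each gene in each group were checked for a library far from the other 3, by the gap to its nearest neighbour as a share of the group's range on log2(RPKM + 1) (Dixon's test). Of 18 such sets 3 passed the 95% critical value, where chance gives about 1 in 20. Birc2 was highest in KO3, at 41.8 RPKM, with a gap of 0.8746 of the range. Gadd45b was lowest in KO4, at 2.06 RPKM, with a gap of 0.8487. Icam1 was lowest in KO3, where it was listed at 0, with a gap of 0.9126. All 3 belong to the libraries of lane 5, and no set of WT values was marked in this way.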

How the results depend on the processing

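The count of members called was 0 in all settings except library weights, which called 2 (Cd69 and Sdc4). The count over all genes was 0 with all libraries, 2 in lane 4 alone, 164 with library weights, 3 without WT2, KO3 and KO4, and 0 to 2 when each library was left out, the 2 being without KO3. Neither an adjusted p under 0.1 nor the other filters changed the count of members called. The count of members without overlap was 1 with all libraries, 1 to 2 when each was left out (adding Cd69 without WT2 or without KO4, and Icam1 without KO3, while 8.02% to 12.0% of all tested genes did not overlap in these sets), 3 in lane 4 alone (24.2% of genes) and 5 without WT2, KO3 and KO4, where 34.2% of all tested genes did not overlap. The median of -0.40 was -0.11 in lane 4 alone and with lane as a covariate, -0.97 with a pseudocount of 0.1, and ran from -0.79 (without KO1) to -0.25 (without WT4) when each library was left out. All these medians include Sdc4, which had to differ.

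Cd69 and Sdc4 were negative under every alternative. For Sdc4, with every KO value at 0 and every WT value above 0, the sign was fixed unless the values were renormalized. The others changed sign under some, and the cause was not tested. With lane as a covariate, as in lane 4 alone, the differences were -0.35 for Birc2, 0.12 for Birc3, 0.35 for Gadd45b, -0.53 for Ier3, 0.81 for Icam1 and 0.74 for Vcam1. Library weights gave -0.43 for Birc2, -0.51 for Ier3, 0.57 for Icam1 and 0.54 for Vcam1. Without WT2, KO3 and KO4 the values were -0.61 for Birc2, 0.19 for Gadd45b, -0.80 for Ier3, 0.65 for Icam1 and 0.90 for Vcam1. Quantile normalization gave -0.0031 for Ier3, 0.28 for Icam1 and 0.27 for Vcam1. Leaving out each library, the ranges were -0.36 to 0.18 for Birc2, -0.93 to 0.29 for Gadd45b, -0.21 to 0.36 for Ier3, -0.55 to 0.91 for Icam1 and -0.65 to 0.08 for Vcam1 (0.077 both without KO3 and without KO4).

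Samples with the same number did not deviate together (correlations of -0.08 to -0.04), so no pairing by number was seen. With 4 libraries a group this cannot exclude such a pairing. With the replicate block 0 genes and 0 members were called, the median was -0.40 and the smallest adjusted p of a member in limma was 0.781. With 4 libraries a group, an approximate depth and zeros that differ between libraries, levels under about 3 RPKM are the least certain.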
